A study of Mus musculus with 45 samples.

Results

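The genes of sulfur amino acid, taurine and sulfide metabolism were followed in the epithelium of the colon in control mice, obese mice and mice that had been obese before (formerly obese mice). The set held 10 genes, Cbs, Cth, Cdo1, Csad, Ccbl1, Ccbl2, Sqrdl, Ethe1, Tst and Suox, out of 24918 gene entries of the RNA-seq count table. They were picked by their symbols for their place in these pathways, and each symbol had 1 entry. The pick was made with the RNA-seq differences between the diet groups of these same libraries already known. The levels and group differences of the 10 genes are therefore given as a description. Whether a gene met the call rule given below is part of that description and not independent evidence. All 10 genes passed the filter on low counts, as did 12961 entries in all. In the gene annotation used here, Ccbl1, Ccbl2 and Sqrdl carry the symbols Kyat1, Kyat3 and Sqor.

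The mice were males of 6 weeks of age when the diets began, of the strain C57BL/6 in the labels and C57BL/6J in the methods of the study. Control mice ate a low-fat diet (10% fat) for 20 weeks, obese mice a high-fat diet (60% fat) for 20 weeks, and formerly obese mice spent 15 weeks on high-fat followed by 5 weeks on low-fat food. The fat of both diets was lard. The epithelium was taken from the whole colon with EDTA, and 5 mice per group were measured by each of RNA-seq, whole-genome bisulfite sequencing (WGBS) and sequencing of bisulfite PCR amplicons (BSP-seq), which gave 45 samples.

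As background, methionine is turned into homocysteine, and Cbs (cystathionine beta-synthase) and Cth (cystathionine gamma-lyase) carry its sulfur over to cysteine. Cdo1 (cysteine dioxygenase) and Csad (cysteine sulfinic acid decarboxylase) then lead to taurine, the amino acid that is joined to bile acids. Ccbl1 and Ccbl2 are kynurenine aminotransferases that also cleave cysteine conjugates. Bacteria in the gut lumen release hydrogen sulfide, and the colonic epithelium is known for oxidizing it in its mitochondria. In that chain Sqrdl (sulfide:quinone oxidoreductase) takes up sulfide, Ethe1 (persulfide dioxygenase) makes sulfite, Tst (rhodanese) passes sulfur on between the chain's intermediates, and Suox (sulfite oxidase) turns sulfite into sulfate.

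Each RNA-seq library held 15230391 to 22762095 gene counts, and formerly obese replicate 3 had the highest total. Epithelial markers, 5 of 5 measured, summed to between 9338 and 10341 CPM (read counts scaled to a common library size) in every library, whereas 5 smooth muscle markers summed to at most 2.44 CPM. Colonocyte markers, 7 of 7 measured, summed to between 5233 and 11387 CPM in control mice, 6557 and 11167 CPM in obese mice, and 8531 and 13989 CPM in formerly obese mice. Posterior Hox genes, 8 of 8 measured, summed to between 493 and 597 CPM in control mice, 429 and 548 CPM in obese mice, and 346 and 454 CPM in formerly obese mice, and 6 of the 8 were called lower in formerly obese than in control mice. The 7 small intestine markers summed to 324 to 607 CPM in control and 472 to 741 CPM in formerly obese mice. Of the 3 tested, 2 (Fabp2 and Sis) were called higher in formerly obese than in control mice. In obese against control mice 1 of these 3 (Fabp6) was called higher, with a summed level of 397 to 618 CPM in obese mice, as were 1 of 7 colonocyte markers (Slc51a) and 1 of 6 goblet cell markers (Spink4), while 1 of 8 posterior Hox genes (Hoxd12) was called lower. The 4 tuft cell markers summed to 28.7 to 44.0 CPM in control and 40.0 to 54.2 CPM in formerly obese mice. Of the 3 tested, 2 (Dclk1 and Trpm5) were called higher in formerly obese than in control mice. The 5 fibroblast markers, of which 3 were tested, summed to between 1.67 and 8.96 CPM in control, 5.31 and 15.3 CPM in obese and 5.27 and 25.7 CPM in formerly obese mice. In formerly obese against obese mice Pyy, 1 of 6 enteroendocrine markers, and Hoxd10 were called lower, and in formerly obese against control mice Alb, 1 of 2 tested hepatocyte and kidney markers, was called lower. No marker in any list was at 0 in every library.

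The regions of changed methylation near the genes are shown before the expression values. WGBS gave a list of 8199 differentially methylated regions (DMRs) between obese and control mice, 4123 with a gain (hyper-DMRs) and 4076 with a loss (hypo-DMRs) in obese mice. Within 10 kb of the gene body, 6 of the 10 genes had a DMR, beside 20.6% of the 12961 tested genes. The genes with a DMR were Ccbl1, Csad, Ethe1, Sqrdl, Suox and Tst, and 5 of the 6 DMRs were hypo-DMRs. The list gives a position and a direction per DMR and no methylation level per mouse, so no spread between mice can be set beside it. The formerly obese mice are not part of this list.

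The hypo-DMR of Ethe1 lay in its promoter. It spanned 18 bases with 3 CG dinucleotides at chr7:24587385-24587402 (mm10, plus strand), from 158 to 141 bases before the transcription start. The 300 bases around the Ethe1 start (RefSeq, GRCm38.p6, chr7:24587293-24587592, plus strand) are printed to show how close the region is to the start, with the DMR in capitals.
Ethe1: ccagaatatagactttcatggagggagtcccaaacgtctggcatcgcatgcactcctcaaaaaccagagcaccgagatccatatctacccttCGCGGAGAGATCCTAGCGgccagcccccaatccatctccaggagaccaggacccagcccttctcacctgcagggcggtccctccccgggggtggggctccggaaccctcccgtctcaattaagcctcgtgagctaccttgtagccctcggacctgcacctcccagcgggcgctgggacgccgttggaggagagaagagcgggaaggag
The letters CCAAT, searched on both strands, stood once in this window, at 132 bases before the start, which is just past the DMR. These letters were found in 37.4% of all 32851 RefSeq promoters of the same length.

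The other 5 DMRs within 10 kb are printed because, with the Ethe1 DMR, they are the only listed differences between the 2 diets within that distance. The DMR is in capitals, with 25 bases on each side in lower case, and each is written in the direction of its gene (GRCm38.p6). Each DMR opens with the C of a CG and closes with the G of another.
Csad: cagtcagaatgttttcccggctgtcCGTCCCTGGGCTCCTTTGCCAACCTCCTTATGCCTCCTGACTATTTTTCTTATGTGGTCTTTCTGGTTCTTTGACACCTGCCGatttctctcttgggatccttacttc
Suox: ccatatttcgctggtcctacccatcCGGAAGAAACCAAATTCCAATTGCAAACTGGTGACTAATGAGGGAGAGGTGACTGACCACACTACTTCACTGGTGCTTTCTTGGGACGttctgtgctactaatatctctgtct
Ccbl1: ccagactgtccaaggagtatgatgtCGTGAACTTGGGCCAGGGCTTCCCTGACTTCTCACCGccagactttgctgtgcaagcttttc
Sqrdl: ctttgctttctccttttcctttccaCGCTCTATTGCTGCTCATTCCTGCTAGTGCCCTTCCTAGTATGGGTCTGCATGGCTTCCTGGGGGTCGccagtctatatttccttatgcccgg
Tst: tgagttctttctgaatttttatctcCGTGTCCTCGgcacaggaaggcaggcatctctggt
The Csad DMR (chr15:102187781-102187863, minus strand) lay in an intron, 1.18 to 1.26 kb after the start used by the count table. The Suox DMR (chr10:128672312-128672399, minus strand) also lay in an intron, 1.52 to 1.61 kb after the start. The Ccbl1 DMR (chr2:30192000-30192036, minus strand) fell in an exon 13.7 kb into the gene. The Sqrdl DMR (chr2:122763496-122763563, plus strand) was the only hyper-DMR among the 6 and lay 1.8 kb before the start used by the count table. The RefSeq promoter of Sqrdl (chr2:122771463-122771762, plus strand) lies farther from this DMR. The Tst DMR (chr15:78396947-78396956, minus strand) lay 2.6 kb beyond the end of the gene. The plot of DMRs around the gene starts shows that 4 of the 6, those of Ethe1, Sqrdl, Csad and Suox, were within 2 kb of the start used by the count table. Csad and Ethe1 each have another RefSeq promoter, at chr15:102205003-102205302 and chr7:24593658-24593957, farther from the printed DMR. A Csad hyper-DMR outside the 10 kb window, at chr15:102207875-102207883, lay 18.8 kb before the start used by the count table. It lies closer to the other Csad promoter than the intron hypo-DMR does.

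**Figure D1:**
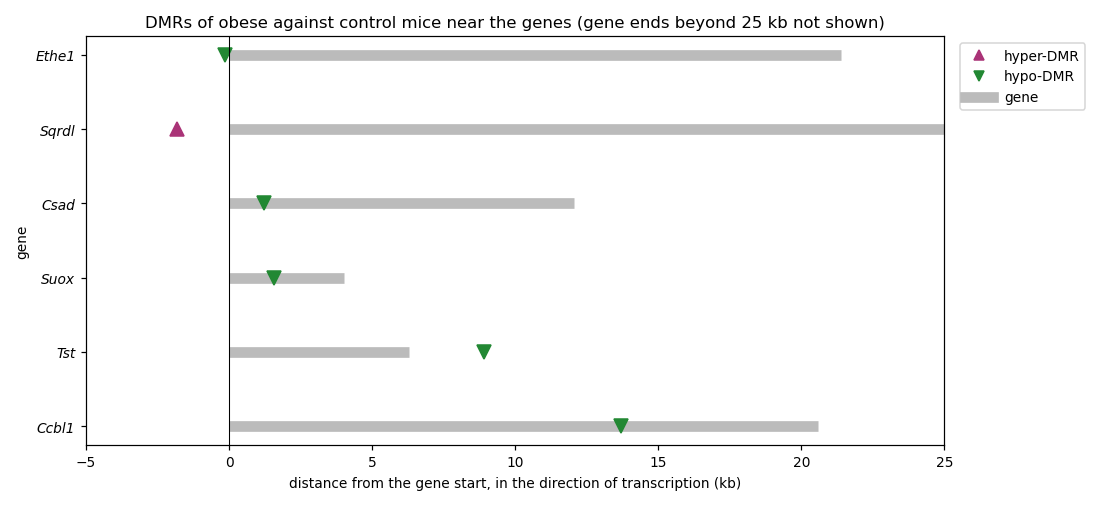
Position of the DMRs of obese against control mice from 5 kb before to 25 kb after the start of the 6 genes with a DMR within 10 kb. The x axis is the distance in kb from the gene start used by the count table. Gray bars are genes, and triangles pointing up and down are hyper- and hypo-DMRs. The Ethe1 hypo-DMR sits at the start, the Sqrdl hyper-DMR 1.8 kb before it, and the Ccbl1 hypo-DMR deep in the gene.

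The other 4 genes had no DMR nearby. Ccbl2, whose transcript level differed most between obese and control mice among the 10 genes, had its nearest DMR 227 kb away. The nearest DMR was 178 kb from Cth, 98.1 kb from Cdo1 and 80.2 kb from Cbs. No CpG of the BSP-seq amplicons lay closer than 13.2 Mb to any of the genes on the same chromosomes, so BSP-seq did not measure them.

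Expression was then compared between the groups. In the calls used here, edgeR's quasi-likelihood test over all tested genes had to give a p-value under 0.01, an adjusted p under 0.25 and a fold above 1.2 up or down. This rule took in 1.58% of the 12961 tested genes for obese against control mice, 3.72% for formerly obese against control mice and 2.65% for formerly obese against obese mice. Of the 10 genes, 1, 2 and 1 met this rule in the 3 comparisons. Because the genes were picked with these comparisons known, nothing is read from those counts. The 3 comparisons use each group in 2 of them, so they are not independent of each other.

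Per kb of exon, which makes levels of different genes comparable, the sulfide oxidation genes stood highest. In control mice the mean level was 370 ± 53.5 CPM per kb (SD, n = 5) for Ethe1, 323 ± 33.4 for Sqrdl and 226 ± 27.8 for Tst. The cysteine-forming gene Cth followed at 82.6 ± 13.2 CPM per kb, and Cbs stood at 34.5 ± 3.41. The taurine gene Cdo1 had 27.7 ± 2.38 CPM per kb and Csad 16.7 ± 0.43. Ccbl1 had 18.1 ± 3.48 CPM per kb, Suox 13.1 ± 2.65 and Ccbl2, the lowest, 5.9 ± 0.25. Suox, the last enzyme of the sulfide chain, was thus far below the other members of that chain. In this order the ranges over control mice overlapped between Ethe1 and Sqrdl, between Ccbl1 and Csad and between Csad and Suox, although Ethe1 was above Sqrdl within each of the 5 mice. The ranges of all other neighbours were separate. The order of the top 6 genes was the same in obese and formerly obese mice, and the mean of Suox stood above that of Csad in both of these groups, with overlapping ranges in obese mice.

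Csad, the decarboxylase on the way to taurine, was lower in formerly obese mice than in both other groups. Control replicates 1 to 5 had 59.6, 57.1, 56.0, 56.4 and 58.3 CPM. Obese replicates 1 to 5 had 55.9, 56.5, 54.8, 56.0 and 57.3 CPM. Formerly obese replicates 1 to 5 had 46.0, 46.6, 48.5, 46.2 and 48.5 CPM. All 5 formerly obese mice were below all 10 other mice, and control and obese mice overlapped. Of all tested genes, 3.62% had no overlap between formerly obese and control mice, and 3.38% none between formerly obese and obese mice. The share with 1 group apart from both others was not computed. The measured spread between mice of a group was small, with a coefficient of variation of 2.59%, 1.63% and 2.68% in control, obese and formerly obese mice. Csad had 743 to 1090 counts per library, at which counting noise alone would on average give a spread at least this large. Counting noise was not separated from the spread, which therefore does not show how little the mice differ. The fitted log2 fold change of formerly obese against control mice was -0.29 (SE 0.04), or 0.82 times the control level, which met the call rule. Against obese mice it was -0.25 (SE 0.04), or 0.841 times the obese level, a step short of the fold cutoff of 1.2. In obese against control mice it was -0.04 (SE 0.04). The intron hypo-DMR printed above belongs to the obese against control comparison, in which the Csad levels overlapped. Colonocyte markers were higher and posterior Hox genes lower in formerly obese mice, as given above, and their part in the Csad difference was not tested.

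Cdo1, the dioxygenase that makes the substrate of Csad, did not follow the Csad pattern. Its mean was 48.6 ± 4.18 CPM in control, 42.8 ± 2.92 CPM in obese and 44.96 ± 6.89 CPM in formerly obese mice (SD, n = 5), and the groups overlapped. The log2 fold change was -0.18 (SE 0.09) in obese and -0.11 (SE 0.09) in formerly obese against control mice. The highest and the lowest mouse of all 15 were both formerly obese, at 54.3 CPM in replicate 5 and 37.6 CPM in replicate 2.

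Ccbl2, the aminotransferase with the lowest level of the set, was lower in obese mice. Its mean in formerly obese mice stood between those of the other groups. Control replicates 1 to 5 had 13.0, 13.4, 13.5, 14.3 and 12.9 CPM. Obese replicates 1 to 5 had 8.87, 10.0, 9.14, 11.2 and 10.2 CPM. Formerly obese replicates 1 to 5 had 12.6, 12.3, 12.4, 12.3 and 12.3 CPM. The 3 groups took 3 separate ranges, with the highest obese mouse at 11.2 CPM, the formerly obese mice from 12.3 to 12.6 CPM and the lowest control mouse at 12.9 CPM. These values rest on 141 to 279 counts per library. The coefficient of variation in formerly obese mice, 0.957%, is smaller than counting noise alone would give on average at these counts. The narrow range of these mice therefore does not show how alike they are. The gap between formerly obese and control mice is small, and counting noise was not separated from it. The 3 separate ranges are thus not read as 3 distinct levels. The share of genes with 3 separate ranges was not computed. Groups that do not overlap were seen for 2.47% of tested genes in obese against control, 3.62% in formerly obese against control and 3.38% in formerly obese against obese mice. The log2 fold change was -0.44 (SE 0.07) in obese against control mice, or 0.735 times the control level. It was 0.33 (SE 0.07) in formerly obese against obese mice and -0.12 (SE 0.07) in formerly obese against control mice, of which the latter did not meet the call rule.

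Ccbl1, the other aminotransferase, did not show this pattern. It was 39.3 ± 7.57 CPM in control, 46.7 ± 4.46 CPM in obese and 39.2 ± 6.89 CPM in formerly obese mice (SD, n = 5), with overlapping groups. The log2 fold change was 0.25 (SE 0.13) in obese against control mice and -0.25 (SE 0.13) in formerly obese against obese mice, and neither met the call rule. Its hypo-DMR in an exon belongs to the obese against control comparison, in which 1 obese mouse was above all control mice.

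Suox, which ends the sulfide chain at sulfate, had a higher mean in obese and formerly obese mice. Control replicates 1 to 5 had 28.1, 22.4, 31.5, 39.4 and 32.5 CPM. Obese replicates 1 to 5 had 35.3, 30.8, 49.8, 36.7 and 44.6 CPM. Formerly obese replicates 1 to 5 had 37.3, 36.2, 54.1, 39.0 and 43.3 CPM. The groups overlapped, and only 2 obese and 2 formerly obese mice, replicates 3 and 5 in both groups, were above all control mice. The log2 fold change was 0.45 (SE 0.15) in formerly obese against control mice, which met the call rule, and 0.36 (SE 0.15) in obese against control mice, which did not. The call in formerly obese mice was lost without control replicate 1, 2, 3 or 5 or without formerly obese replicate 3 or 5, with log2 fold changes between 0.34 and 0.56 over all 10 fits that left out 1 mouse. The obese against control difference met the rule without control replicate 4, at 0.46. Of the 7 colonocyte markers, 7 had a log2 fold change above 0 in formerly obese and 4 in obese against control mice. The part of these markers in the Suox differences was not tested.

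Sqrdl, the enzyme that takes up sulfide, had similar levels in control and obese mice and a higher mean in formerly obese mice. Its levels were 636, 647, 647, 803 and 659 CPM in control replicates 1 to 5. They were 635, 662, 686, 700 and 642 CPM in obese replicates and 790, 694, 833, 717 and 789 CPM in formerly obese replicates. Control replicate 4 overlapped with the formerly obese mice, and the other 4 control mice were below all of them. The log2 fold change was 0.17 (SE 0.07) in formerly obese against control mice and 0.20 (SE 0.07) in formerly obese against obese mice, and the former was 0.24 without control replicate 4. None of these met the fold cutoff. In obese against control mice, the comparison of its hyper-DMR, the log2 fold change was -0.03 (SE 0.07).

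Ethe1, the persulfide dioxygenase, had 550 ± 79.5 CPM in control, 529 ± 13.5 CPM in obese and 602 ± 60.5 CPM in formerly obese mice (SD, n = 5). In obese against control mice, the comparison of its promoter hypo-DMR, the log2 fold change was -0.05 (SE 0.08), and the obese mice lay inside the range of the control mice. In formerly obese mice it was 0.13 (SE 0.08) against control and 0.19 (SE 0.08) against obese mice, and 4 of 5 formerly obese mice were above all obese mice. Without control replicate 4 the value against control mice was 0.22. Tst, the rhodanese, had the flattest means of the set, with 249 ± 30.6, 245 ± 9.92 and 247 ± 15.9 CPM, and log2 fold changes from -0.02 to 0.01 (SE 0.07) in the 3 comparisons.

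The genes that form cysteine differed little between groups. Cth had 149 ± 23.7 CPM in control, 147 ± 4.03 CPM in obese and 162 ± 12.8 CPM in formerly obese mice (SD, n = 5). Its log2 fold change was -0.02 (SE 0.08) in obese against control, 0.13 (SE 0.08) in formerly obese against control and 0.15 (SE 0.08) in formerly obese against obese mice. Without control replicate 4 the formerly obese against control value of Cth was 0.22. Cbs had 86.2 ± 8.54, 93.8 ± 16.0 and 96.4 ± 13.6 CPM in the same order, with log2 fold changes of 0.12 (SE 0.11) and 0.16 (SE 0.11) in obese and formerly obese against control mice.

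**Figure D2:**
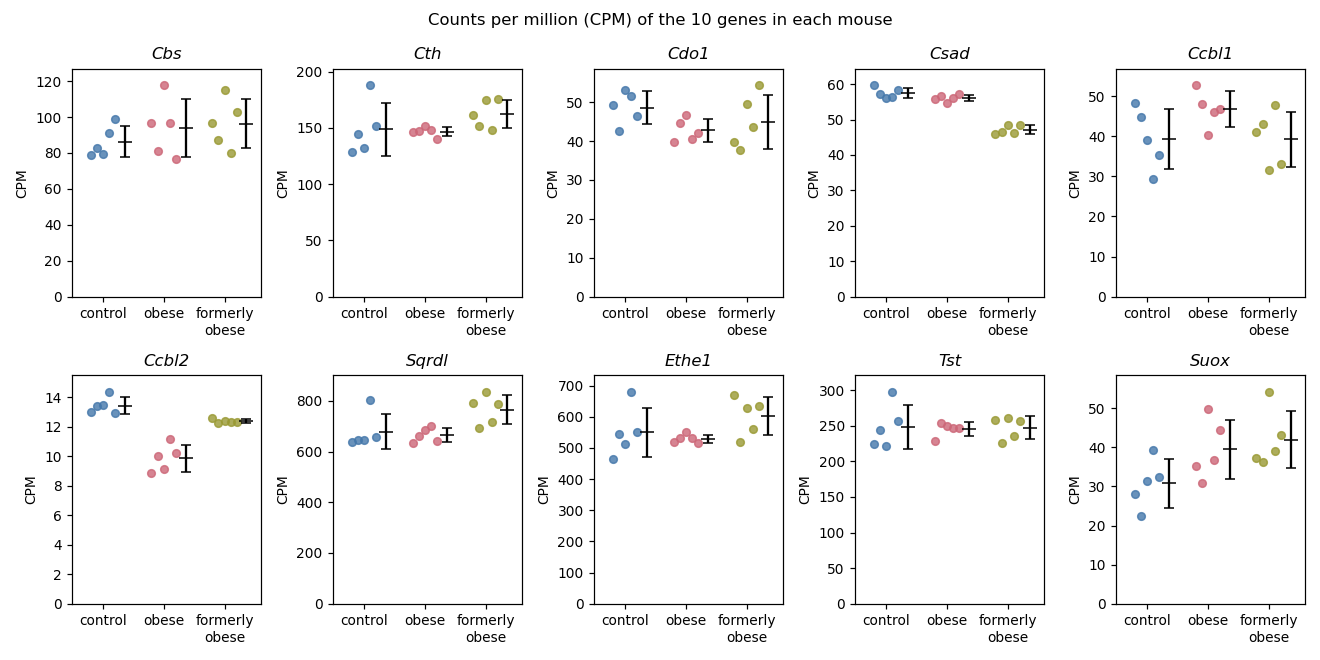
Level of each of the 10 genes in each mouse, in CPM on an axis that starts at 0, for control, obese and formerly obese mice. Points are mice in replicate order and the black bar is the mean ± SD (n = 5). Csad in formerly obese mice and Ccbl2 in obese mice are separate from the other groups, while the other genes overlap between groups.

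**Figure D3:**
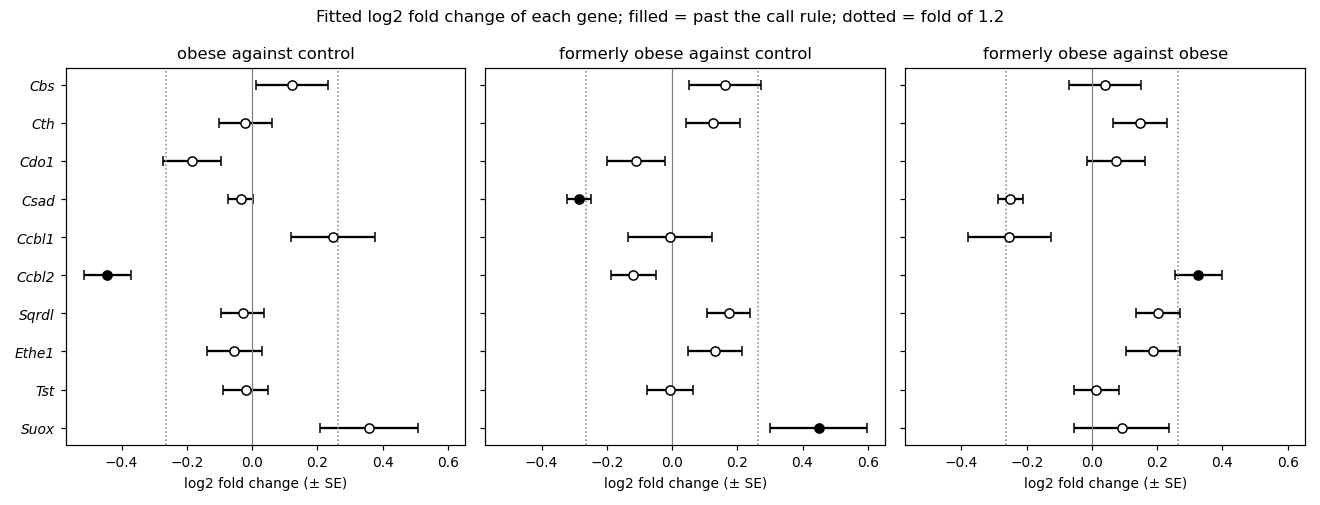
Fitted log2 fold change with its SE for the 10 genes in the 3 comparisons. Filled points met the call rule and dotted lines mark a fold of 1.2. Ccbl2 is at -0.44 in obese against control mice, Csad at -0.29 and Suox at 0.45 in formerly obese against control mice, and Ccbl2 at 0.33 in formerly obese against obese mice.

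Over the 10 genes the median log2 fold change was -0.02 in obese against control mice, 0.06 in formerly obese against control mice and 0.08 in formerly obese against obese mice. The median over all tested genes was 0.00 in each of these comparisons. In formerly obese against obese mice 8 of the 10 values were above 0, with Csad and Ccbl1 below. In bulk epithelium, fewer cells of a type and less RNA per cell cannot be told apart.

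Mouse to mouse variation inside the groups, which the choice of the genes did not use, was correlated between several of the genes. Each log2 CPM value was set against the mean of its group, and all 45 pairs of the 10 genes were compared over 15 mice by a two-sided permutation test in which mice were exchanged within their group (100000 permutations). After adjustment over the 45 pairs, 13 pairs had an adjusted p under 0.05, of which 7 were positive and 6 negative. The share among pairs of other genes was not computed, so the count is not read as particular to this set. Cth, Sqrdl, Ethe1 and Tst, the cysteine-forming lyase and the first part of the sulfide chain, varied together. Their 6 pairs had Pearson r between 0.882 and 0.912 and Spearman rho between 0.821 and 0.929, with permutation p of at most 0.00156 for r (adjusted p of at most 0.0078) and of at most 0.00075 for rho (adjusted p of at most 0.00482). When the 2 mice farthest from the median of the gene on the x axis were left out, r of these pairs was between 0.735 and 0.828. Control replicate 4 was the highest control mouse in all of these 4 genes.

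Ccbl1 varied against these genes. Its Pearson r was -0.84 with Cth (rho -0.846, permutation p = 0.0015 and 0.00189, adjusted p = 0.0078 and 0.00851, r = -0.743 without the 2 farthest mice). With Sqrdl it was -0.822 (rho -0.807, permutation p = 0.00057 and 0.0017, adjusted p = 0.00576 and 0.0085, r = -0.667 without the 2 farthest mice). With Suox it was -0.785 (rho -0.796, permutation p = 0.00094 and 0.00122, adjusted p = 0.00701 and 0.00686, r = -0.646 without the 2 farthest mice). Its pairs with Cbs, Tst and Ethe1 were negative too, with r of -0.678, -0.765 and -0.744 and adjusted permutation p of 0.0169, 0.0254 and 0.0498 (rho of -0.664, -0.736 and -0.761). The remaining pair was Cth with Cbs, with r of 0.59 and rho of 0.775 (adjusted permutation p = 0.0106 and 0.00396, r = 0.761 without the 2 farthest mice). Csad and Ccbl2, the genes whose groups were separate, were in none of the 13 pairs.

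**Figure D4:**
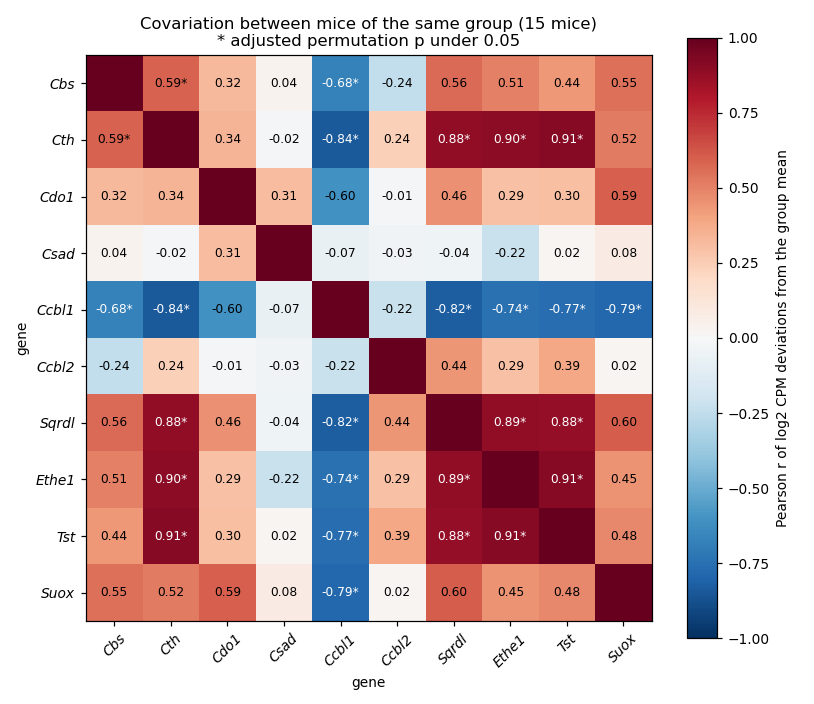
Pearson r between the 10 genes over 15 mice, computed on log2 CPM after subtracting the group mean. Color and number give r, and a star marks an adjusted permutation p under 0.05. Cth, Sqrdl, Ethe1 and Tst form a positive block with r from 0.882 to 0.912, and the Ccbl1 row is negative against them.

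The mean level of the 7 colonocyte markers moved with some of the 10 genes inside the groups. The share of other genes that move with these markers was not computed, so the relations are not read as particular to this set. Of 10 relations tested in the same way, Pearson r was 0.812 for Suox (rho 0.761, permutation p = 0.00159 and 0.00366, adjusted p = 0.0159 and 0.0285) and stayed at 0.715 without the 2 farthest mice. It was 0.789 for Sqrdl (rho 0.686, permutation p = 0.0071 and 0.0097, adjusted p = 0.0178 and 0.0285) and 0.601 without those mice. Ethe1 had r of 0.74 (rho 0.664, permutation p = 0.00646 and 0.0114, adjusted p = 0.0178 and 0.0285), and 0.536 without them. Ccbl1 had r of -0.711 (rho -0.682, permutation p = 0.00459 and 0.00962, adjusted p = 0.0178 and 0.0285), and -0.49 without them. Tst had r of 0.683 with an adjusted permutation p of 0.047, but rho of 0.589 with an adjusted p of 0.061, and r of 0.418 without those mice. For Csad r was -0.262 (rho -0.232, adjusted permutation p = 0.452 and 0.446) and for Ccbl2 it was 0.224 (rho 0.325, adjusted permutation p = 0.473 and 0.292). For Cth, Cdo1 and Cbs the adjusted permutation p was 0.0728, 0.0963 and 0.138, with r of 0.657, 0.457 and 0.43 and rho of 0.496, 0.518 and 0.429.

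**Figure D5:**
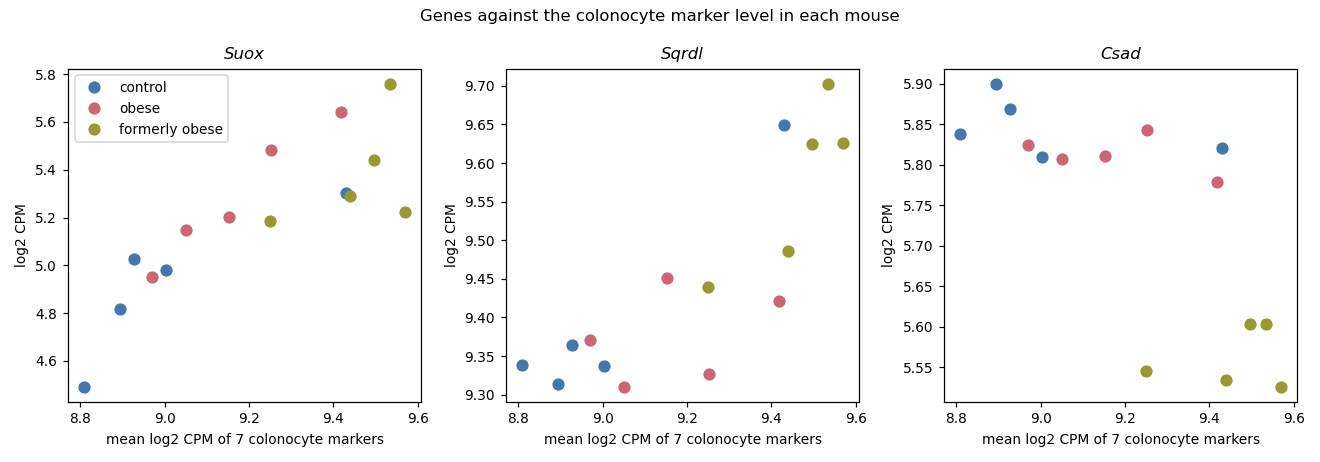
Level of Suox, Sqrdl and Csad (log2 CPM) against the mean log2 CPM of 7 colonocyte markers in each of the 15 mice, colored by group. Over the 15 mice, Suox and Sqrdl are mostly higher where the markers are higher, and the 5 formerly obese mice are the lowest in Csad.

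The genes most like the 3 members that met the call rule were looked up among 9376 other genes with a mean of at least 10 CPM, by Pearson r of log2 CPM over the 15 libraries, group differences included. For Csad these were Wdr6 with r of 0.954, Lrfn4 with 0.94 and Tmed3 with 0.912. For Ccbl2 these were Scd1 with r of 0.903, Rabggtb with 0.832 and Rps25 with 0.825. For Suox these were Lpcat4 with r of 0.943, Aplp1 with 0.904 and Clca6 with 0.9. These values are a description of the 15 libraries, as the best of many genes.

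The rest of the sulfur pathways was read from 5 gene lists with 68 tested genes of 82. In obese against control mice 3 of the 68 were called (4.41%, beside 1.58% of all genes), in formerly obese against control mice 4 (5.88%, beside 3.72%), and in formerly obese against obese mice 6 (8.82%, beside 2.65%). These lists were also put together with results of these libraries known, so nothing is read from the counts, and the adjusted p-values of their genes are not independent evidence. For groups without overlap among these genes, the shares over all tested genes are those given above with Ccbl2.

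In the list of sulfide, persulfide and sulfate genes, 19 of 19 were tested. Slc26a3, a chloride and bicarbonate exchanger of the colon surface, had 1093 ± 207 CPM in control, 939 ± 116 CPM in obese and 1449 ± 177 CPM in formerly obese mice (SD, n = 5). It rose in formerly obese mice by a log2 fold change of 0.62 (SE 0.12, edgeR adjusted p = 0.0433) against obese and 0.41 (SE 0.12, edgeR adjusted p = 0.0818) against control mice, and 5 of 5 formerly obese mice were above all others in both comparisons. Selenbp1, which encodes the methanethiol oxidase that releases sulfide, had 1197 ± 150 CPM in control, 917 ± 84.0 CPM in obese and 1136 ± 162 CPM in formerly obese mice. It fell in obese against control mice, with a log2 fold change of -0.38 (SE 0.10, edgeR adjusted p = 0.142, 4 of 5 obese mice below all control mice) and rose in formerly obese against obese mice by 0.31 (SE 0.10, edgeR adjusted p = 0.171). Papss2, which makes the sulfate donor of sulfation reactions, rose in formerly obese against control mice by 0.40 (SE 0.12, edgeR adjusted p = 0.0833), from 684 ± 114 to 905 ± 144 CPM. Slc26a2, a sulfate transporter, rose in formerly obese against obese mice by 0.27 (SE 0.09, edgeR adjusted p = 0.179), from 860 ± 64.7 to 1037 ± 117 CPM. The median log2 fold change of the list was -0.07, 0.06 and 0.17 in obese against control, formerly obese against control and formerly obese against obese mice. Leaving out 1 mouse ended the call in 0 of 10 fits for Slc26a3 against obese mice and in 2 against control mice, in 5 for Selenbp1 against control mice and in 7 against obese mice, in 4 for Papss2 and in 7 for Slc26a2. Colonocyte markers were called higher for 3 of 7 genes (Car4, Ceacam20 and Krt20) in formerly obese against control mice and for 2 of 7 (Car4 and Guca2a) against obese mice. The part of these markers, and of the tuft cell markers given above, in these differences was not tested.

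In the list of taurine and cysteine handling, 13 of 14 genes were tested and Slc7a9, a subunit of the cystine and dibasic amino acid transporter, was the only one called. It rose in obese against control mice by a log2 fold change of 0.58 (SE 0.18, edgeR adjusted p = 0.225), from 17.0 ± 2.3 to 25.3 ± 2.93 CPM, with 5 of 5 obese mice above all control mice. It fell in formerly obese against obese mice, with a log2 fold change of -0.65 (SE 0.18, edgeR adjusted p = 0.109), to 16.2 ± 5.61 CPM. Leaving out 1 mouse ended the call against control mice in 9 of 10 fits, with log2 fold changes between 0.51 and 0.64. The small intestine, colonocyte and goblet cell markers called higher in obese mice (Fabp6, Slc51a and Spink4) moved in the same comparison, and their part in the rise of Slc7a9 was not tested.

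In the glutathione list, 18 of 19 genes were tested. Ggt1, a transferase that breaks down glutathione outside the cell, rose in obese against control mice by a log2 fold change of 0.91 (SE 0.21, edgeR adjusted p = 0.111), from 4.15 ± 1.07 to 7.82 ± 2.32 CPM, with 5 of 5 obese mice above all control mice. Dpep1, a dipeptidase that splits cysteinylglycine and so frees cysteine, rose in formerly obese mice by 0.53 against obese mice (SE 0.10, edgeR adjusted p = 0.0433) and by 0.33 against control mice (SE 0.10, edgeR adjusted p = 0.0894). Its level was 388 ± 59.8 CPM in control, 339 ± 17.6 CPM in obese and 489 ± 71.0 CPM in formerly obese mice, and 5 of 5 formerly obese mice were above all obese mice. Leaving out 1 mouse ended the call of Ggt1 in 3 of 10 fits and that of Dpep1 in 3 against control and 0 against obese mice. The part of the same markers in the rise of Ggt1, and of the colonocyte markers in that of Dpep1, was not tested.

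In the kynurenine list only 3 of 10 genes were tested. Ido1, which starts the breakdown of tryptophan to kynurenine, the substrate of Ccbl1 and Ccbl2, rose in formerly obese against control mice by a log2 fold change of 1.44 (SE 0.40, edgeR adjusted p = 0.0706). Its level was low, from 0.752 ± 0.295 to 2.08 ± 1.23 CPM, and without formerly obese replicate 4 the call was lost at a log2 fold change of 1.03. In the list of the methionine cycle and salvage, 15 of 20 genes were tested and 1 was called. Ahcyl2, a relative of adenosylhomocysteinase that is known mainly for its effect on ion transport, rose in formerly obese against obese mice by 0.33 (SE 0.11, edgeR adjusted p = 0.185), from 921 ± 87.9 to 1154 ± 163 CPM, and leaving out 1 mouse ended this call in 7 of 10 fits.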

How the data were processed

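RNA of the colonic epithelium was sequenced from 15 mice, 5 per diet group. Raw counts per gene were deposited by the authors, who aligned stranded paired-end reads against mm10 (TopHat2 2.0.4 in the submitters' processing notes) and counted them with HTSeq-count. The strand mode and annotation release are not given in the sources used here. Among the 10 genes only Ethe1 overlaps another annotated gene, Zfp575 on the opposite strand, which had 0 CPM. The authors also deposited DESeq2 tables of fold changes and p-values, which were not used. The WGBS region list, deposited by the authors from a Rao-Scott likelihood ratio test of obese against control mice, gives positions in mm10. Deposited BSP-seq values are methylated fractions per CpG and mouse, used here only for CpG positions.

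Counts were analysed with edgeR 4.0.16 in R 4.3.3. Genes were filtered with filterByExpr, scaled by TMM and fitted over 15 libraries with group as the only term. SE values were derived from this fit, as the size of the log2 fold change divided by the square root of the quasi-likelihood F statistic. A prior count of 2 entered log2 CPM. The cutoffs for a call were the study's. Mice of a group were separate animals, and the labels name no batch. The fit was tested on simulated data.

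The genes, lists and tests were chosen with earlier results of these data known. Named genes were the 10 members, up to 4 called genes per list and comparison by smallest p-value, and the 3 genes most like each called member. Alternatives were DESeq2 1.42.0, other scalings and filters, a stricter cutoff, a GC correction, a replicate block, fits of 2 groups, leaving out each mouse, and other DMR windows.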

Additional observations from a re-analysis of the deposited data

Results flagged for a closer look

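Of 30 groups of 5 mice (10 genes in 3 groups), 2 held a mouse far from the other 4 of its group by Dixon's test on log2 CPM. Chance alone flags about 5% of groups. Sqrdl was at 803 CPM in control replicate 4, with 636 to 659 CPM in the other control mice. Tst was at 228 CPM in obese replicate 1, the lowest of its group, with 247 to 254 CPM in the other obese mice.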

How the results depend on the processing

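Over 19 alternatives per comparison, the log2 fold change of Csad in formerly obese against control mice stayed between -0.30 and -0.27. That of Ccbl2 in obese against control mice stayed between -0.49 and -0.41. Both were called in each alternative, including the main fit read with the stricter cutoff in place of the call rule. These alternatives reuse the libraries with which the genes were picked, so they show only the dependence on processing. No called value of the 10 genes changed sign. Over all alternatives and comparisons 8 values of the 10 genes lost the call and 4 gained it. With an adjusted p under 0.05 and no fold cutoff, Ccbl2 in formerly obese against obese mice and Suox in formerly obese against control mice were not called, and Csad in formerly obese against obese mice was. That count of called members was then 1 in formerly obese against control mice. Under this cutoff edgeR called 0 of 68 pathway genes in obese and 0 in formerly obese against control mice (18 and 19 at an unadjusted p under 0.05, and 2 and 5 with DESeq2) and 2 in formerly obese against obese mice, and 16, 282 and 25 of all genes in the 3 comparisons. Leaving out 1 mouse at a time gave 1 to 2 called members in each comparison. It gave 0 to 4, 2 to 8 and 3 to 6 called pathway genes, and 40 to 331, 362 to 660 and 167 to 400 of all genes, in obese against control, formerly obese against control and formerly obese against obese mice. The lowest and highest counts of all genes in the first of these came without obese replicate 3 and without obese replicate 2. Csad also met the rule against obese mice without formerly obese replicate 3. The count of genes with a DMR was 5, 6 and 8 of 10 for windows of 2, 5 and 100 kb, beside 14.1%, 16.5% and 62.4% of all genes. The cause of these shifts was not tested.

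Replicate numbers shared between groups were not treated as pairs. Correlations of same-numbered deviations ran from -0.231 to 0.333. Those of differently numbered mice were not computed, so these values do not settle whether the mice were paired. With the replicate number as a block, 252, 537 and 346 genes were called, beside 205, 482 and 343 without it. Called members in obese against control mice were then 2, with Suox at 0.35, and called pathway genes 5. Slc26a2 was not called in formerly obese against obese mice, at 0.27.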
